A study of Mus musculus with 6 samples.

Results

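Crypts from irradiated mice given MPLA were compared with crypts from irradiated mice without it, across every gene of sufficient level. MPLA (monophosphoryl lipid A) is a detoxified derivative of bacterial lipid A that acts on Toll-like receptor 4. RNA of intestinal crypts of C57BL/6 mice was sequenced in 3 groups: AIR + MPLA, abdominal irradiation with MPLA, replicates 1 and 3; AIR, abdominal irradiation without it, replicates 1 and 3; and Control, no irradiation, replicates 2 and 3. Both irradiated groups were collected 3 days after irradiation. The labels give no radiation dose, no MPLA dose or schedule, and no age or sex. They name MPLA in the titles only, and do not tie each replicate to its own mouse, and the p-values below refer to variation among these libraries alone, which could be technical. Of the 21878 genes in the files, 10415 had at least 1 FPKM (fragments per kilobase of transcript scaled to the number of mapped fragments) in at least 2 of the 6 libraries, and these were compared. AIR + MPLA alone carried 12 of them past that limit, of which 4 were called higher below, AIR alone 51, of which 32 were called lower, and Control alone 106.

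The crypt epithelium is renewed by stem cells at its base, which are kept by Wnt signals and give rise to absorptive enterocytes and to secretory goblet, Paneth, enteroendocrine and tuft cells. Abdominal irradiation damages DNA in these dividing cells, and p53 target genes and a regenerative programme follow. TLR4, with its coreceptors MD-2 (Ly96) and CD14, binds lipid A and signals through the adaptors MyD88 and TRIF (Ticam1) to NF-kB and interferon genes. MPLA is known for a bias to the TRIF arm.

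Many transcripts differed between the groups. By limma on log2(FPKM + 1), with p-values adjusted over all genes by the Benjamini-Hochberg method at 0.05, 3060 of 10415 genes (29.4%) passed: 2029 were higher in AIR + MPLA (19.5%) and 1031 lower (9.9%). Of those higher, 354 differed by more than 2-fold on this scale and none by more than 4-fold, and of those lower 446 and 10 did. Over all genes the log2 fold had a median of 0.146, so the changes below are read against that shift. With median-ratio scaling, which brought the median to 0.009, the split was 1078 higher (10.4%) and 1453 lower (14.0%). For 77.2% of all genes the 2 AIR + MPLA libraries did not overlap the 2 AIR libraries, 47.5% higher and 29.7% lower, and statements that libraries did not overlap are set against those shares. Each call needs all 4 irradiated libraries: without any 1 of them no gene passed (limma, smallest adjusted p between 0.0707 and 0.144), although 2457 to 3665 genes had an unadjusted p under 0.05 and all 3060 genes kept their sign. Without Control replicate 2 or 3, 4893 and 4890 genes passed. FPKM totals were 441942 and 454781 in AIR + MPLA replicates 1 and 3, and 398242 and 419566 in AIR replicates 1 and 3. The number of reads is not given in the files, so depth is known only in relative terms: from the most common ratio of low values it was 0.933 and 0.841 in AIR + MPLA and 0.871 and 0.732 in AIR, relative to Control replicate 3.

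Fold changes went with the GC content of the transcript. Across 10357 genes, which are not independent replicates, Spearman's rho between the log2 fold and GC content was 0.629. In the tenth of genes with the lowest GC content (34.4% to 42.7%) the median log2 fold was -0.75, with 0.386% of genes called higher and 46.7% lower. In the tenth with the highest GC content the median was 0.466, with 35.5% called higher and 0.869% lower. The trend was also present within groups: rho was -0.492 for AIR + MPLA replicate 1 minus replicate 3 and 0.151 for AIR replicate 1 minus replicate 3. After each library's trend with GC content was removed, 1275 genes were higher (12.2%) and 377 lower (3.62%), and 1172 of these 1652 were calls of the uncorrected values in the same direction. For the changes that the correction removed, MPLA and GC content cannot be told apart. Calls are therefore marked as passing all 4 fits where the gene also passed in the same direction with GC correction, with median-ratio scaling and with both. With both, 600 genes were higher (5.76%) and 729 lower (7.0%). Calls in all 4 fits were 389 genes higher (3.73% of those tested) and 259 lower (2.49%).

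**Figure D1:**
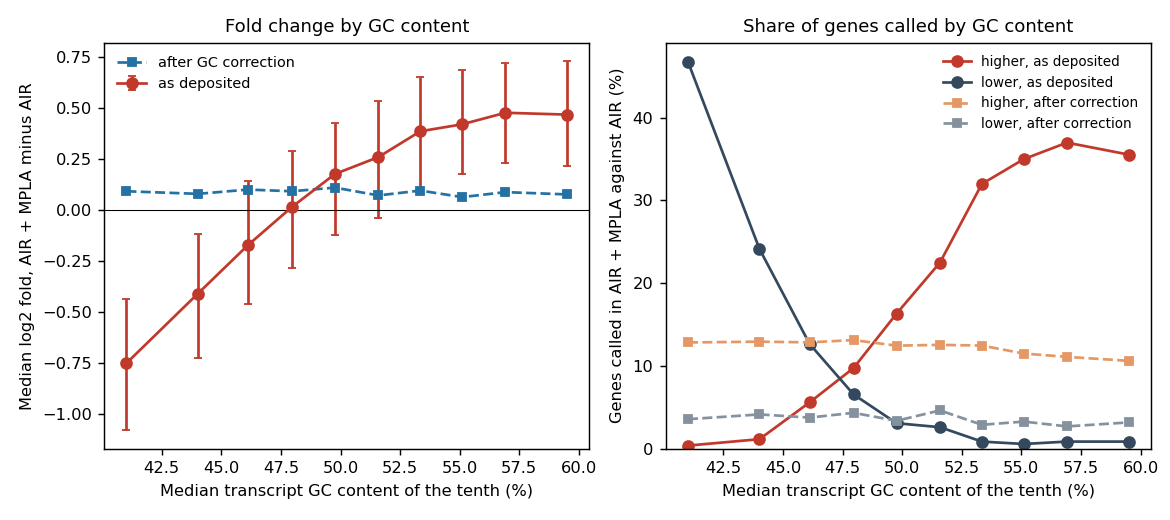
Left, median log2 fold of AIR + MPLA minus AIR in 10 equal groups of genes ordered by transcript GC content (%), with bars from the first to the third quartile for the deposited values and squares for the values after GC correction. Right, the percentage of genes called higher or lower in each group. The median ran between -0.75 and 0.475 in the deposited values and between 0.0622 and 0.109 after correction.

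The libraries were epithelial by their markers. The 10 epithelial markers were present in every library. They summed to 4186 and 4733 FPKM in AIR + MPLA and 3493 and 2998 in AIR. Of the 10, 5 were called higher (50%, against 19.5% of all genes) and none in all 4 fits. T cell and intraepithelial lymphocyte markers summed to 24.3 and 37.4 FPKM in AIR + MPLA, 39.2 and 50.1 in AIR and 147 and 222 in Control, and none of the 10 tested of 16 was called (limma; 2 at an unadjusted p under 0.05, 1 called lower with GC correction). Markers of B and plasma cells, macrophages and dendritic cells, fibroblasts and smooth muscle, endothelium, enteric glia and erythrocytes each summed to at most 10.6 FPKM in every irradiated library. Pancreatic acinar cell markers summed to 85.5 and 77.7 FPKM in AIR + MPLA and 41.03 and 51.7 in AIR, and none of the 3 tested was called (limma; none at an unadjusted p under 0.05, 1 called lower with GC correction). The 8 neutrophil markers summed to 0.173 and 1.09 FPKM in AIR + MPLA and 8.28 and 2.64 in AIR. Of these markers 7 and 4 were at 0 in AIR + MPLA and 4 and 5 at 0 in AIR, and in both Control libraries all 8 were at 0. S100a8, a calcium-binding protein abundant in neutrophils and the only one tested, had 0 and 0.220 FPKM in AIR + MPLA against 1.63 and 1.45 in AIR (log2 fold -1.20, SE 0.16, limma adjusted p = 0.0153), and it passed all 4 fits. S100a8 reached the limit for testing in the AIR libraries only, so it was tested only because it was high there. Its p-value and its calls are therefore no independent support for a fall. In such bulk libraries, fewer cells of a type and less RNA per cell cannot be told apart.

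Stem cell transcripts were often called higher with MPLA in the deposited values. Of 27 tested markers of crypt base columnar stem cells, 12 were called higher (44.4%, against 19.5% of all genes) and none lower, with a median log2 fold of 0.54 against 0.146 over all genes. Sox9, a transcription factor of crypt progenitors, had 7.62 and 5.75 FPKM in AIR + MPLA, 2.87 and 2.91 in AIR and 9.28 and 10.1 in Control (log2 fold 0.97, SE 0.17, limma adjusted p = 0.0167). Ephb2, the receptor that positions cells along the crypt axis, had 6.20 and 6.61 FPKM in AIR + MPLA, 3.17 and 2.69 in AIR and 7.47 and 7.78 in Control (log2 fold 0.92, SE 0.15, limma adjusted p = 0.0154). For both genes the libraries of the 2 irradiated groups did not overlap, and the AIR + MPLA libraries lay between AIR and Control. Sox9 was the one stem cell marker that passed all 4 fits. With GC correction 4 of the 27 were called higher, a share of 14.8% that was near the 12.2% of all genes, and with median-ratio scaling 5 were (18.5%, against 10.4%).

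Lgr5, the R-spondin receptor that defines these cells, had 1.01 and 0.577 FPKM in AIR + MPLA, 0.266 and 0.269 in AIR and 4.22 and 3.56 in Control. The MPLA libraries were above the AIR libraries and well under Control, but the test was not passed (log2 fold 0.49, SE 0.18, limma adjusted p = 0.0766), nor with GC correction (log2 fold 0.53, adjusted p = 0.0598). Olfm4, an abundant secreted protein of the same cells, had 303 and 199.7 FPKM in AIR + MPLA and 90.96 and 245 in AIR. AIR replicate 3 lay between the AIR + MPLA libraries, and the threshold was missed (log2 fold 0.72, SE 0.46, limma adjusted p = 0.257). Among 7 tested markers of reserve stem cells, Krt19 was called higher and Bmi1 lower, neither of them with GC correction.

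Several Wnt targets were called higher too. Of 15 tested feedback inhibitors and targets, 7 were called higher (46.7%, against 19.5% of all genes) and none lower (median log2 fold 0.48). With GC correction 2 were higher (13.3%, against 12.2% of all genes), and 1 passed all 4 fits. Of 11 ligands, receptors and agonists 1 was called higher (9.09%, against 19.5% of all genes) and none lower. Axin2, a feedback inhibitor read as a monitor of Wnt activity, had 8.91 and 7.52 FPKM in AIR + MPLA, 2.95 and 4.26 in AIR and 13.3 and 16.2 in Control (log2 fold 1.01, SE 0.20, limma adjusted p = 0.019). Myc, the growth transcription factor, had 22.4 and 19.3 FPKM in AIR + MPLA, 8.88 and 8.98 in AIR and 21.9 and 21.96 in Control (log2 fold 1.13, SE 0.14, limma adjusted p = 0.0153). Myc reached the Control level, Axin2 did not, and with GC correction Myc passed and Axin2 missed the threshold (adjusted p = 0.0648). The called receptor was Lrp5, a Wnt coreceptor, at 17.6 and 19.3 FPKM in AIR + MPLA and 8.65 and 7.07 in AIR, which passed all 4 fits (log2 fold 1.14, limma adjusted p = 0.0153).

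In the Notch list 5 of 22 were higher (22.7%) and none lower, a share near that of all genes, and with GC correction 2 were higher (9.09%) and 1 lower. Hes1, the Notch effector that favours the absorptive fate, had 20.1 and 19.3 FPKM in AIR + MPLA and 9.56 and 12.9 in AIR (log2 fold 0.77, SE 0.18, limma adjusted p = 0.0261). Dll4, a ligand of the secretory lineage, had 5.87 and 4.87 FPKM in AIR + MPLA and 3.09 and 2.30 in AIR (log2 fold 0.79, limma adjusted p = 0.0464). Both were above every AIR library, and neither passed with GC correction. Of 16 BMP genes 1 was called higher (6.25%, against 19.5% of all genes) and none lower. It was Bmp7, at 1.20 and 1.10 FPKM in AIR + MPLA and 0.433 and 0.434 in AIR, near the lower limit of the values compared.

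The largest rise named by the rule was in a mucus gene of goblet cells. Fcgbp, a mucus protein that binds the mucin network (gene ID 215384, chromosome 7, 28071236 to 28120864 of GRCm38.p6), had 509.5 and 526 FPKM in AIR + MPLA, 165 and 129 in AIR and 287 and 367 in Control (log2 fold 1.82, SE 0.21, limma adjusted p = 0.0153; 95% interval 1.33 to 2.32). With predicted genes left out, it ranked first among called genes whose libraries did not overlap and whose higher group averaged at least 5 FPKM. Both MPLA libraries exceeded Control. Muc2, the gel-forming mucin (gene ID 17831, chromosome 7), had 58.8 and 60.2 FPKM in AIR + MPLA, 29.5 and 19.1 in AIR and 43.2 and 35.6 in Control (log2 fold 1.29, SE 0.22, limma adjusted p = 0.0166). Creb3l1, a transcription factor of the secretory pathway, had 12.5 and 13.8 FPKM in AIR + MPLA and 5.46 and 3.36 in AIR (log2 fold 1.41, SE 0.29, limma adjusted p = 0.0201). All 3 passed all 4 fits. Muc4, a membrane mucin, and Capn9, a calpain, were also called higher but not with GC correction. The other 24 of 29 tested goblet markers were not called, so that the list's share of 17.2% was under the 19.5% of all genes and its median was 0.36.

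Few genes of the other secretory lineages were called. None of 26 tested Paneth cell genes was called by limma (2 at an unadjusted p under 0.05), and none with GC correction or median-ratio scaling (none and 1 at an unadjusted p under 0.05), although 22 had a positive fold and the median was 0.42. Lyz1, lysozyme of Paneth cells, had 2575 and 1919 FPKM in AIR + MPLA, 1341 and 1556 in AIR and 2890.5 and 9079 in Control (log2 fold 0.62, SE 0.50, limma adjusted p = 0.36). Defa24, the most abundant alpha-defensin, had 7617 and 5314 FPKM in AIR + MPLA, 4725 and 5452 in AIR and 10144 and 29539 in Control (log2 fold 0.33, SE 0.50, limma adjusted p = 0.628). For both genes the Control libraries differed from each other by more than the irradiated groups did. Defensin copies are nearly identical, which leaves the value of each one uncertain. None of 13 tuft cell genes was called by limma in the deposited values (2 at an unadjusted p under 0.05), and 1 was with GC correction.

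Of 10 listed transcription factors of the enteroendocrine fate 3 were tested; 2 were called higher and 1, with a negative fold, was not called. Neurog3, which commits cells to this lineage, had 4.84 and 4.55 FPKM in AIR + MPLA, 2.05 and 2.37 in AIR and 4.73 and 4.85 in Control (log2 fold 0.83, SE 0.15, limma adjusted p = 0.0175). Insm1, its downstream factor, had 5.36 and 5.27 FPKM in AIR + MPLA, 2.71 and 1.98 in AIR and 4.04 and 3.47 in Control (log2 fold 0.93, SE 0.17, limma adjusted p = 0.0181). With MPLA Insm1 was above Control and Neurog3 at its level, and neither passed with GC correction (adjusted p = 0.1 and 0.099). Of 16 hormones and granule proteins, Chga and Fev were called higher (12.5%, against 19.5% of all genes) and none lower. Neither of the 2 was called with GC correction (limma adjusted p = 0.231 and 0.128).

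**Figure D2:**
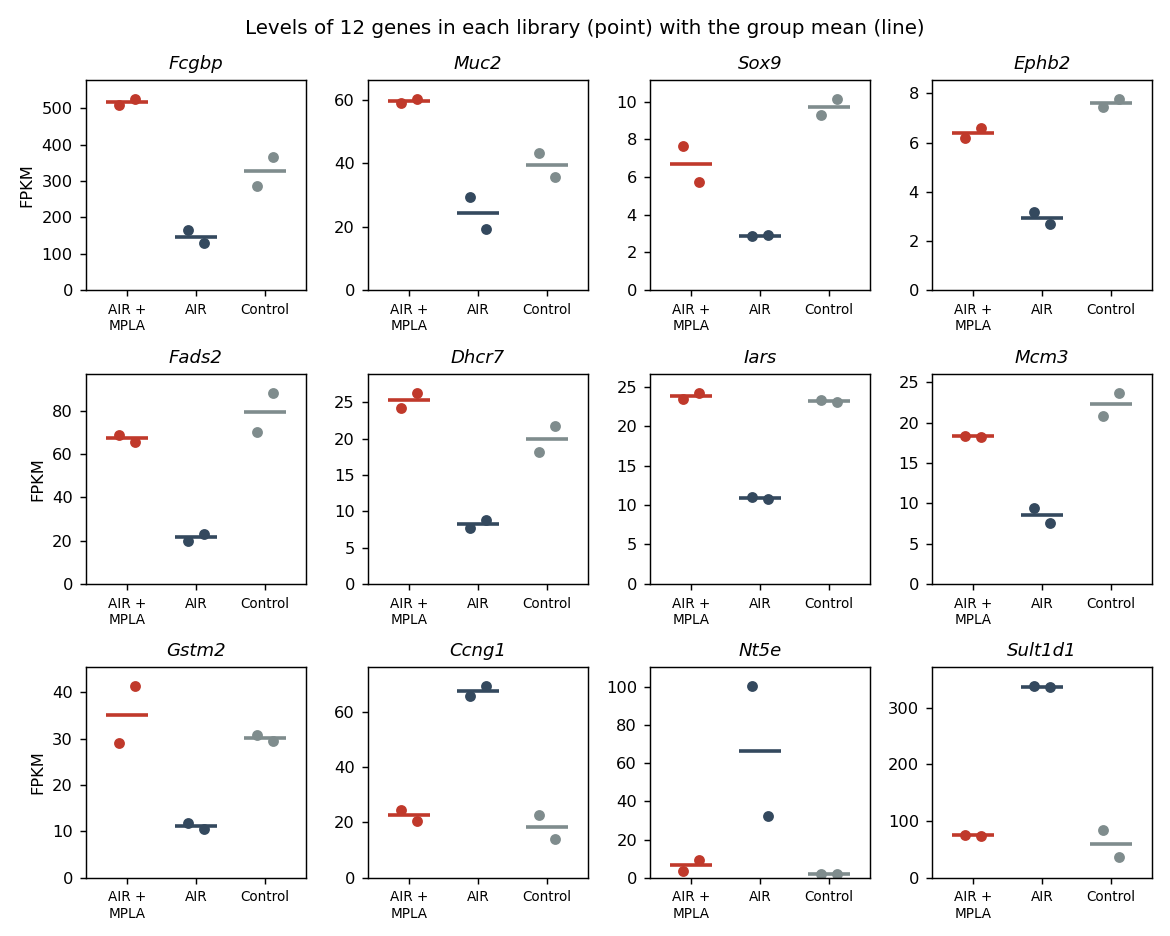
FPKM of 12 genes in each library, in the order AIR + MPLA, AIR and Control; points are libraries and lines are the means of 2. For the first 9 genes both AIR + MPLA libraries lie above both AIR libraries, and for Ccng1, Nt5e and Sult1d1 both lie below.

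Absorptive cell genes went both ways. Of 24 tested epithelial identity factors, 9 were higher (37.5%, against 19.5% of all genes) and 1 lower, and with GC correction 5 (20.8%, against 12.2%) and 1. Gata4, which sets small-intestinal identity, had 52.4 and 56.1 FPKM in AIR + MPLA, 25.8 and 22.2 in AIR and 49.7 and 61.02 in Control (log2 fold 1.14, SE 0.17, limma adjusted p = 0.0153). Cdx2, the master regulator of intestinal fate, had 89.3 and 84.6 FPKM in AIR + MPLA, 44.3 and 50.6 in AIR and 81.4 and 94.8 in Control (log2 fold 0.86, SE 0.16, limma adjusted p = 0.0181). Both lay between the 2 Control libraries. Gata4 passed all 4 fits and Cdx2 missed with GC correction (adjusted p = 0.0651). Isx, an intestinal homeobox factor, was also higher, at 66.2 and 72.05 FPKM in AIR + MPLA, 37.9 and 40.9 in AIR and 47.5 and 51.3 in Control (log2 fold 0.80, SE 0.15, limma adjusted p = 0.0179). The one that fell was Maf, at 13.2 and 14.9 FPKM in AIR + MPLA and 23.6 and 22.2 in AIR (log2 fold -0.67, limma adjusted p = 0.0212), in all 4 fits.

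Brush border enzymes had 8 of 22 members higher and 5 lower, so that both shares (36.4% and 22.7%) were above those of all genes (19.5% and 9.9%). With GC correction 2 were higher (9.09%, against 12.2% of all genes) and 1 lower (4.55%, against 3.62%). Lct, lactase, had 6.12 and 10.8 FPKM in AIR + MPLA, 2.38 and 3.36 in AIR and 27.2 and 36.4 in Control (log2 fold 1.25, SE 0.28, limma adjusted p = 0.0233). Anpep, aminopeptidase N, had 629 and 828 FPKM in AIR + MPLA, 321 and 344 in AIR and 428 and 523 in Control (log2 fold 1.12, SE 0.22, limma adjusted p = 0.0187). Lactase stayed far under Control with MPLA, while Anpep exceeded it. Dpp4, a dipeptidyl peptidase, fell to 18.1 and 14.6 FPKM in AIR + MPLA, against 29.5 and 36.8 in AIR (log2 fold -0.98, limma adjusted p = 0.0239), and was the one enzyme of the list to pass all 4 fits. Mme, neprilysin, fell to 20.1 and 20.2 FPKM in AIR + MPLA, against 43.7 and 44.9 in AIR, and was not called after GC correction.

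Of 21 enterocyte lipid transport genes 4 fell (19%, against 9.9% of all genes) and 2 rose (9.52%, against 19.5%). With GC correction 2 were lower (9.52%, against 3.62% of all genes) and 1 higher (4.76%, against 12.2%). Fabp2, the intestinal fatty acid-binding protein, had 789 and 940.3 FPKM in AIR + MPLA, 2361 and 2255 in AIR and 980.2 and 701 in Control (log2 fold -1.42, SE 0.24, limma adjusted p = 0.0158). Cd36, a fatty acid translocase, had 3.89 and 3.80 FPKM in AIR + MPLA, 25.5 and 11.3 in AIR and 2.95 and 1.44 in Control (log2 fold -1.90, SE 0.38, limma adjusted p = 0.0194). With MPLA both genes were near Control, and the AIR libraries alone were high. Fabp2 passed all 4 fits, and Cd36 lost its call with GC correction (log2 fold -0.84, adjusted p = 0.171). Npc1l1, the sterol transporter of the brush border, moved the other way, at 37.7 and 40.8 FPKM in AIR + MPLA and 18.3 and 20.8 in AIR (log2 fold 0.97, limma adjusted p = 0.0153), in all 4 fits. The median of the list was 0.03, or -0.13 with median-ratio scaling.

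Among 21 nutrient transporters 6 were higher (28.6%, against 19.5% of all genes) and 1 lower (4.76%, against 9.9%). Among 25 ion and fluid transport genes 6 were higher (24%) and 3 lower (12%), near the shares of all genes. Slc7a8, a neutral amino acid exchanger, had 56.6 and 57.7 FPKM in AIR + MPLA, 15.5 and 25.95 in AIR and 64.4 and 50.7 in Control (log2 fold 1.46, SE 0.25, limma adjusted p = 0.0162). Slc1a1, a glutamate transporter, had 18.2 and 19.1 FPKM in AIR + MPLA, 6.15 and 8.19 in AIR and 25.1 and 18.6 in Control (log2 fold 1.28, SE 0.20, limma adjusted p = 0.0153). Kcnq1, a potassium channel of crypt cells, had 40.7 and 35.02 FPKM in AIR + MPLA, 13.6 and 15.6 in AIR and 40.6 and 35.2 in Control (log2 fold 1.31, SE 0.16, limma adjusted p = 0.0153). These 3 passed all 4 fits and had AIR + MPLA libraries near or within Control. Members of the Clca family of channel regulators moved in opposite directions. Clca3b had 112 and 74.4 FPKM in AIR + MPLA, 20.9 and 31.96 in AIR and 191 and 225 in Control (log2 fold 1.78, SE 0.27, limma adjusted p = 0.0153). Clca4a had 12.7 and 30.6 FPKM in AIR + MPLA, 287 and 64.8 in AIR and 14.1 and 27.8 in Control (log2 fold -2.73, SE 0.71, limma adjusted p = 0.0329). Clca3b passed all 4 fits, and Clca4a, whose AIR replicate 1 was far above replicate 3, did not with GC correction. The Clca genes are close paralogs, so the split of reads between them is uncertain. Of 26 junction genes 6 were higher (23.1%, near the 19.5% of all genes) and none lower (9.9% of all genes). Among them was Jup, plakoglobin, at 42.4 and 48.1 FPKM in AIR + MPLA and 20.8 and 16.4 in AIR (log2 fold 1.25, limma adjusted p = 0.0154; all 4 fits). Cldn15, the claudin of the paracellular sodium path, had 233 and 277 FPKM in AIR + MPLA, 99.1 and 135 in AIR and 249.96 and 310.1 in Control (log2 fold 1.13, SE 0.22, limma adjusted p = 0.0191).

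Lipid synthesis was among the lists with most calls. Of 37 genes of cholesterol and fatty acid synthesis, all tested, 23 were called higher (62.2%, against 19.5% of all genes) and 1 lower, with a median log2 fold of 0.84. With GC correction 16 were higher and none lower, with median-ratio scaling 19 and 1, and 11 passed all 4 fits. Dhcr7, the last enzyme of cholesterol synthesis, had 24.2 and 26.4 FPKM in AIR + MPLA, 7.69 and 8.86 in AIR and 18.2 and 21.8 in Control (log2 fold 1.505, SE 0.16, limma adjusted p = 0.0153). Ebp, a sterol isomerase of the same pathway, had 68.9 and 71.7 FPKM in AIR + MPLA, 29.1 and 29.1 in AIR and 50.01 and 59.7 in Control (log2 fold 1.24, SE 0.15, limma adjusted p = 0.0153). Both exceeded every AIR and Control library. Fads2, the fatty acid desaturase that starts the synthesis of long polyunsaturated fatty acids (gene ID 56473, chromosome 19, 10062765 to 10101503), had 68.8 and 65.8 FPKM in AIR + MPLA, 19.9 and 23.3 in AIR and 70.5 and 88.5 in Control (log2 fold 1.60, SE 0.17, limma adjusted p = 0.0153; 95% interval 1.19 to 2.01). The gene that fell was Idi1, isopentenyl diphosphate isomerase, at 13.9 and 13.4 FPKM in AIR + MPLA and 26.9 and 31.1 in AIR (log2 fold -1.03, limma adjusted p = 0.0208). Its transcript has a GC content of 40.8%, and with GC correction it was not called (log2 fold -0.19, adjusted p = 0.273).

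PPAR target genes, many of them of fatty acid oxidation, were higher in 11 of 32 (34.4%, against 19.5% of all genes) and lower in 1. With GC correction 8 were higher (25%, against 12.2% of all genes) and 1 lower. Ucp2, a mitochondrial carrier, had 687 and 818 FPKM in AIR + MPLA, 273 and 247 in AIR and 364 and 495 in Control (log2 fold 1.53, SE 0.22, limma adjusted p = 0.0153). Cpt2, which brings fatty acids into beta-oxidation, had 61.9 and 78.3 FPKM in AIR + MPLA and 31.2 and 31.3 in AIR (log2 fold 1.13, limma adjusted p = 0.0153). Pdk4, a kinase that restrains pyruvate oxidation, went the other way, at 8.93 and 13.3 FPKM in AIR + MPLA, 52.2 and 22.7 in AIR and 2.49 and 1.58 in Control (log2 fold -1.58, SE 0.39, limma adjusted p = 0.0284). All 3 passed all 4 fits, and Pdk4 with MPLA remained above Control.

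Genes that charge tRNAs with amino acids had a larger share called higher than any other list. Of 21 tested aminoacyl-tRNA synthetases 15 were higher (71.4%, against 19.5% of all genes) and 1 lower (4.76%, against 9.9%). Their median was 0.64. With GC correction 15 were higher and none lower, but with median-ratio scaling 7 were higher and 1 lower, and 2 passed all 4 fits. Iars, isoleucyl-tRNA synthetase, had 23.4 and 24.2 FPKM in AIR + MPLA, 10.98 and 10.8 in AIR and 23.3 and 23.05 in Control (log2 fold 1.06, SE 0.13, limma adjusted p = 0.0153). Vars, valyl-tRNA synthetase, had 46.8 and 45.4 FPKM in AIR + MPLA, 17.96 and 18.3 in AIR and 35.2 and 39.8 in Control (log2 fold 1.30, SE 0.14, limma adjusted p = 0.0153). The replicates of these 2 genes lay close together and the MPLA libraries were at or above Control. The one called lower was Dars, at 21.5 and 20.3 FPKM in AIR + MPLA and 29.7 and 37.9 in AIR, and its fold turned with GC correction (log2 fold -0.66 in the deposited values, 0.14 after correction).

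DNA replication genes were often called higher. All 50 listed were tested, and 21 were called higher (42.0%, against 19.5% of all genes) and 4 lower (8%), with a median of 0.45. With GC correction 15 were higher (30%, against 12.2%) and none lower, and 4 passed all 4 fits. Mcm2, a subunit of the replicative helicase, had 18.6 and 17.7 FPKM in AIR + MPLA, 8.09 and 8.25 in AIR and 20.9 and 23.9 in Control (log2 fold 1.06, SE 0.14, limma adjusted p = 0.0153). Mcm3, another subunit, had 18.4 and 18.3 FPKM in AIR + MPLA, 9.48 and 7.59 in AIR and 20.8 and 23.7 in Control (log2 fold 1.03, SE 0.16, limma adjusted p = 0.0153). Lig1, the ligase of lagging strand synthesis, had 15.3 and 16.1 FPKM in AIR + MPLA, 7.81 and 6.82 in AIR and 18.1 and 20.1 in Control (log2 fold 1.01, SE 0.15, limma adjusted p = 0.0153). With MPLA all 3 were above AIR and somewhat below Control. Ccne2, cyclin E2, was lower, at 1.74 and 1.15 FPKM in AIR + MPLA and 4.08 and 5.04 in AIR (log2 fold -1.19, limma adjusted p = 0.0172), with a GC content of 42.3% and no call after correction (adjusted p = 0.0548).

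Genes of protein folding in the endoplasmic reticulum were near the background in the deposited values, with 6 of 29 higher (20.7%) and 1 lower. With GC correction 8 were higher (27.6%, against 12.2% of all genes) and 1 lower. Calr, the chaperone calreticulin, had 363 and 398 FPKM in AIR + MPLA, 171 and 142 in AIR and 239.8 and 365 in Control (log2 fold 1.28, SE 0.24, limma adjusted p = 0.0181). Hyou1, an endoplasmic reticulum chaperone, had 39.3 and 45.4 FPKM in AIR + MPLA and 18.3 and 16.4 in AIR (log2 fold 1.24, SE 0.16, limma adjusted p = 0.0153). Both passed all 4 fits. Dnajb9, a cochaperone, was lower at 13.6 and 17.3 FPKM in AIR + MPLA against 41.7 and 26.2 in AIR (log2 fold -1.06, limma adjusted p = 0.0244), and not with GC correction.

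Promoters of 3 genes called in all 4 fits are shown for these groups, because each group has a textbook promoter element and these members rose. RefSeq sequences of GRCm38.p6 run from 250 bases before to 50 bases after the annotated start, on the strand of the gene, with the element in capitals. The elements and genes were chosen after counts of matches were seen. On both strands TGATGCAA, a core of the C/EBP-ATF response element, was in the promoters of 4 of 13 synthetases that matched the table by symbol, and in 1.03% of all 27025 genes with a promoter. TTTCCCGC or TTTGGCGC, forms of the E2F site, were in 15 of 41 replication genes and in 1.8% of all. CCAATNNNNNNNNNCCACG, the endoplasmic reticulum stress element, was in 8 of 25 folding genes and in 0.137% of all. Of the genes with the element, 3 of the 4 synthetases, 8 of the 15 replication genes and 2 of the 8 folding genes were called higher, near the shares of all members with a promoter in the table (9 of 13, 19 of 41 and 5 of 25), and 1 of the 15 replication genes was lower. A match is a description of the letters only, and the 2 E2F forms in the Mcm3 promoter do not overlap. The sequences were these:
Iars promoter (chr13:49681880-49682179, plus strand; TGATGCAA on the opposite strand, first base 8 bases into the transcript): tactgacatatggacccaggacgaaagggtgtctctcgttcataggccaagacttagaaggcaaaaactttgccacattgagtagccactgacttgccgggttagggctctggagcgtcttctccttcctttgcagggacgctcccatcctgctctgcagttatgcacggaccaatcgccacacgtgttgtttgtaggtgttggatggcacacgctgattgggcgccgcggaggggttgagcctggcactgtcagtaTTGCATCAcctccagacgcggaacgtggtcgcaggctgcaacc
Mcm3 promoter (chr1:20820263-20820562, minus strand; both E2F forms, first bases 20 and 39 bases into the transcript): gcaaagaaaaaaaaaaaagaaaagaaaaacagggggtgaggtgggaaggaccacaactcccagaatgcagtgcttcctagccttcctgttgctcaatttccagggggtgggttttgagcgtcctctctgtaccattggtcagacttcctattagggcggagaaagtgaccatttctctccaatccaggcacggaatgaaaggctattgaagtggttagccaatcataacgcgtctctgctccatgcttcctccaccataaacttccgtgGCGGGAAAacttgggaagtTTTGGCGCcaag
Calr promoter (chr8:84846882-84847181, minus strand; the element on the opposite strand, first base at -162): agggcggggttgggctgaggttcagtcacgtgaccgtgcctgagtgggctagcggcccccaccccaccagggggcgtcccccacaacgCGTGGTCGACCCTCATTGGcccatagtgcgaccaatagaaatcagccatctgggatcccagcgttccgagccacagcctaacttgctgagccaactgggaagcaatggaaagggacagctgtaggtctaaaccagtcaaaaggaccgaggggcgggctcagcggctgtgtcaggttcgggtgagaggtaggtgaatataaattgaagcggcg

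Mitosis and repair genes were less uniform. Of 44 mitosis genes 14 were higher (31.8%, against 19.5% of all genes) and 5 lower (11.4%, near the 9.9% of all genes). Their median was 0.12, or -0.02 with median-ratio scaling. With GC correction 12 were higher (27.3%, against 12.2% of all genes) and none lower. Plk1, the mitotic kinase, had 29.9 and 32.3 FPKM in AIR + MPLA, 11.9 and 10.999 in AIR and 24.8 and 33.5 in Control (log2 fold 1.37, SE 0.18, limma adjusted p = 0.0153), in all 4 fits. Mad2l1, of the spindle checkpoint, was lower at 15.6 and 14.4 FPKM in AIR + MPLA and 24.9 and 34.5 in AIR (log2 fold -0.93, limma adjusted p = 0.0208), and not with GC correction. Mki67, the proliferation marker, had 12.6 and 9.78 FPKM in AIR + MPLA, 14.8 and 15.3 in AIR and 34.6 and 13.6 in Control and missed the threshold (log2 fold -0.41, SE 0.38, limma adjusted p = 0.421). Of 38 repair genes 6 were higher and 3 lower, shares of 15.8% and 7.89% that were under those of all genes (19.5% and 9.9%). With GC correction 6 were higher (15.8%, against 12.2% of all genes) and none lower, with median-ratio scaling 5 (13.2%, against 10.4%) and 4, and 3 passed all 4 fits (7.89%, against 3.73%). H2afx, the histone variant that marks double-strand breaks when phosphorylated, had 84.7 and 88.5 FPKM in AIR + MPLA, 27.6 and 33.2 in AIR and 96.2 and 119 in Control (log2 fold 1.49, SE 0.18, limma adjusted p = 0.0153). Parp1, which senses strand breaks, had 15.2 and 13.95 FPKM in AIR + MPLA and 7.23 and 7.49 in AIR (log2 fold 0.90, limma adjusted p = 0.0153). Msh6, of mismatch repair, had 8.98 and 7.78 FPKM in AIR + MPLA, 4.68 and 4.66 in AIR and 13.2 and 10.9 in Control (log2 fold 0.72, SE 0.16, limma adjusted p = 0.0233). All 3 passed all 4 fits.

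p53 targets were more often lower than higher. Of 50 tested, 10 were lower (20%, against 9.9% of all genes) and 4 higher (8.0%, against 19.5%). Their median was -0.05, against 0.146 over all genes. With GC correction 4 were lower (8%, against 3.62% of all genes) and 1 higher (2%, against 12.2%). Among 13 genes of cell cycle arrest and feedback, 4 were lower (30.8%) and 1 higher (7.69%). Ccng1, cyclin G1, had 24.6 and 20.5 FPKM in AIR + MPLA, 65.8 and 69.1 in AIR and 22.7 and 13.9 in Control (log2 fold -1.54, SE 0.24, limma adjusted p = 0.0153). Mdm2, the ligase that degrades p53, had 4.31 and 3.48 FPKM in AIR + MPLA, 8.46 and 6.47 in AIR and 4.06 and 3.51 in Control (log2 fold -0.79, SE 0.19, limma adjusted p = 0.0265). With MPLA both were close to Control, but the calls were lost with GC correction (log2 fold -0.35, adjusted p = 0.0949 for Ccng1, and -0.55 and 0.0581 for Mdm2). Their transcripts have GC contents of 37.4% and 46.3%. Cdkn1a, the cell cycle inhibitor p21 and the best known p53 target, had 99.6 and 129 FPKM in AIR + MPLA, 103 and 61.4 in AIR and 35.97 and 68.4 in Control. Its groups overlapped and the threshold was missed (log2 fold 0.51, SE 0.36, limma adjusted p = 0.299).

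Among 12 p53 targets of apoptosis 3 were lower (25%, against 9.9% of all genes) and 1 higher (8.33%, against 19.5%). Pmaip1, the BH3-only protein Noxa, had 11.6 and 13.8 FPKM in AIR + MPLA, 139 and 37.7 in AIR and 12.6 and 6.71 in Control (log2 fold -2.43, SE 0.56, limma adjusted p = 0.0254). AIR replicate 1 was far above replicate 3, and with GC correction the gene was not called (adjusted p = 0.0989). Trp53inp1, a p53-induced nuclear protein, had 2.98 and 2.14 FPKM in AIR + MPLA, 9.91 and 9.18 in AIR and 3.41 and 1.29 in Control (log2 fold -1.58, SE 0.31, limma adjusted p = 0.0188), and passed all 4 fits. Fas, the death receptor, had 3.13 and 2.76 FPKM in AIR + MPLA, 5.45 and 4.78 in AIR and 2.31 and 2.61 in Control (log2 fold -0.63, SE 0.16, limma adjusted p = 0.0295), without a call after GC correction. Trp53i11 rose, at 6.87 and 5.64 FPKM in AIR + MPLA and 1.80 and 2.41 in AIR (log2 fold 1.22, limma adjusted p = 0.0172), also in all 4. Of 25 targets of metabolism, repair and signalling 3 were lower (12%, near the 9.9% of all genes) and 2 higher (8%). Among them Sesn1, a stress-induced inhibitor of mTORC1, was lower at 9.73 and 8.61 FPKM in AIR + MPLA and 15.8 and 14.9 in AIR (log2 fold -0.69, limma adjusted p = 0.0204), in all 4 fits. In AIR + MPLA it was under Control as well, at 22.5 and 21.5 FPKM.

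Of 26 caspase and lytic death genes 4 were lower (15.4%, against 9.9% of all genes) and 1 higher (3.85%, against 19.5%), and with median-ratio scaling 6 were lower (23.1%, against 14.0%). With GC correction 1 was lower and 1 higher. Casp4, the caspase that detects cytosolic lipopolysaccharide, had 5.005 and 4.03 FPKM in AIR + MPLA, 15.2 and 15.6 in AIR and 8.94 and 6.22 in Control (log2 fold -1.58, SE 0.20, limma adjusted p = 0.0153). It was the only gene of the list to pass all 4 fits. Casp1, the inflammatory caspase, fell to 40.4 and 36.5 FPKM in AIR + MPLA, against 61.8 and 93.5 in AIR (log2 fold -0.97, limma adjusted p = 0.0298), without a call after GC correction. Nlrp6, an inflammasome sensor of the gut epithelium, was higher, at 64.2 and 71.3 FPKM in AIR + MPLA and 29.7 and 37.3 in AIR (log2 fold 1.002, limma adjusted p = 0.0161). In the BCL2 family 2 of 11 were higher (18.2%) and 1 lower (9.09%), shares near those of all genes, while with GC correction none was higher and 4 were lower (36.4%, against 3.62% of all genes). The one lower in the deposited values was Bnip3l, a mitophagy receptor, at 9.75 and 8.93 FPKM in AIR + MPLA and 18.1 and 18.2 in AIR (log2 fold -0.89, limma adjusted p = 0.0197; all 4 fits).

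**Figure D3:**
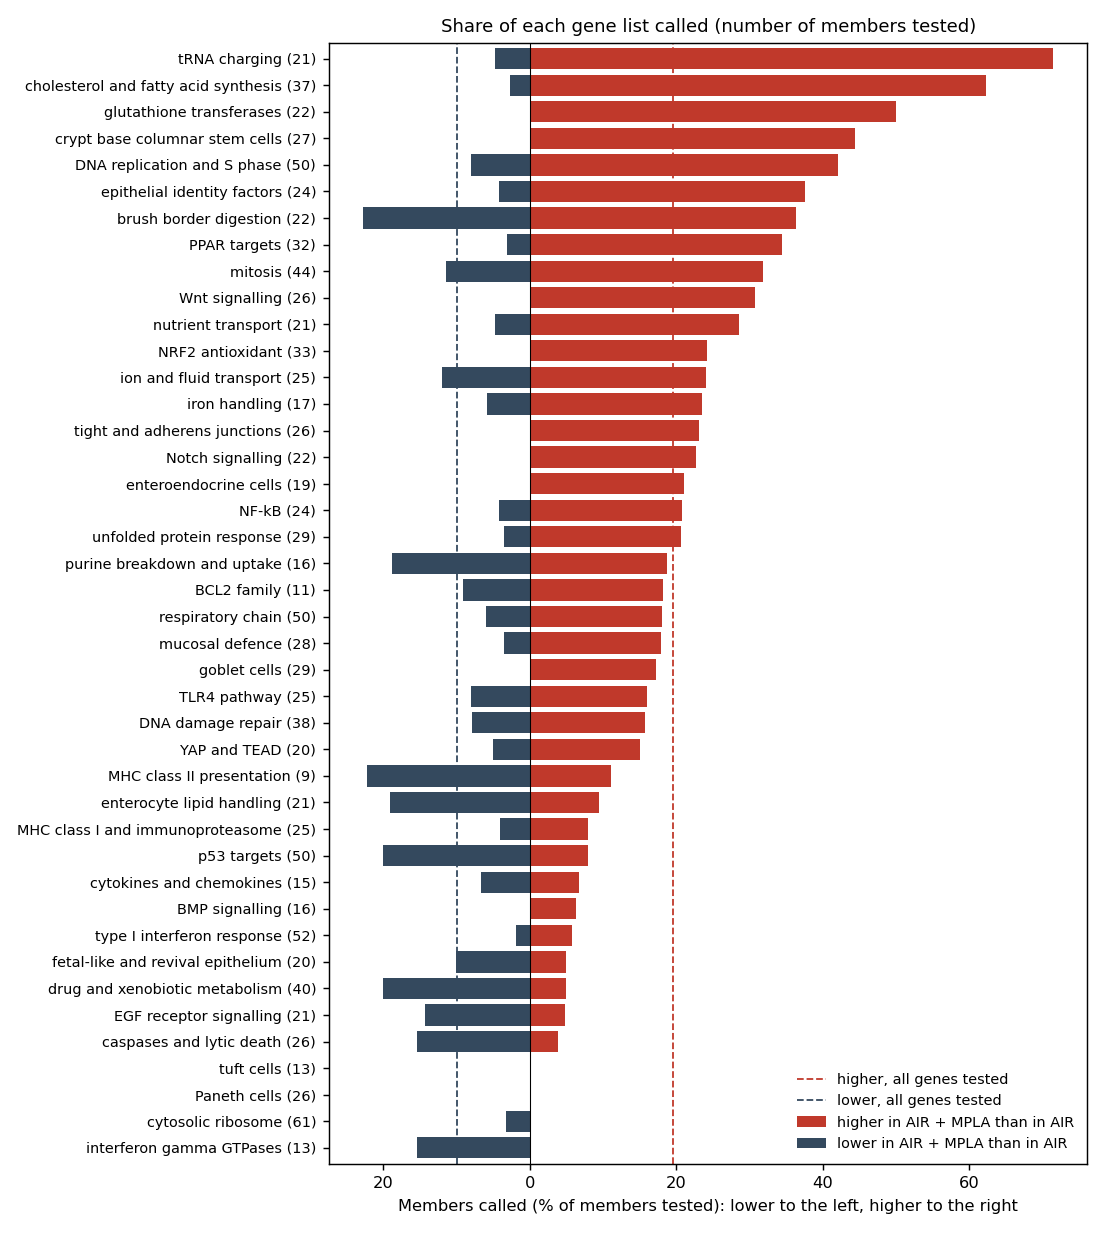
Percentage of the tested members of each list that were called higher (right) or lower (left) in AIR + MPLA against AIR, with the number tested in brackets; dashed lines are the shares of all 10415 genes. The tRNA charging list reaches 71.4% higher, the cholesterol and fatty acid synthesis list 62.2% and the glutathione transferases 50%, against 19.5% of all genes.

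Genes of the regenerative, fetal-like epithelium that follows injury were mostly not called: of 20 tested 2 were lower, 1 higher and 17 neither. The share lower was 10%, near the 9.9% of all genes, and the share higher was 5%, against 19.5%. None was called by limma with GC correction (3 at an unadjusted p under 0.05), and the median was -0.51. Clu, a marker of revival stem cells, had 4.12 and 5.88 FPKM in AIR + MPLA, 8.58 and 2.01 in AIR and 0.0660 and 0.120 in Control. The AIR libraries lay on both sides of AIR + MPLA (log2 fold 0.14, SE 0.48, limma adjusted p = 0.832). Anxa10, an annexin, had 4.12 and 3.73 FPKM in AIR + MPLA, 23.2 and 6.99 in AIR and 0.0424 and 0.0840 in Control (log2 fold -1.50, SE 0.45, limma adjusted p = 0.0464). Cd55, a complement inhibitor, had 1.32 and 1.13 FPKM in AIR + MPLA and 5.23 and 2.97 in AIR (log2 fold -1.16, limma adjusted p = 0.0198). Ccnd1, cyclin D1, was higher at 24.9 and 24.6 FPKM in AIR + MPLA and 15.1 and 11.7 in AIR, but under Control at 40.01 and 50.7.

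Of 4 EGF receptor ligands tested 2 were called lower (50%, against 9.9% of all genes) and none higher. The median of the 4 was -0.998. Btc, betacellulin, had 1.73 and 1.85 FPKM in AIR + MPLA, 6.71 and 3.88 in AIR and 1.62 and 1.10 in Control (log2 fold -1.14, SE 0.24, limma adjusted p = 0.0219). Hbegf, heparin-binding EGF-like growth factor, had 2.90 and 3.70 FPKM in AIR + MPLA, 9.45 and 5.31 in AIR and 2.60 and 3.24 in Control (log2 fold -0.92, SE 0.26, limma adjusted p = 0.039). Both were close to Control with MPLA, and Hbegf passed all 4 fits. Of 17 receptors and feedback genes, Errfi1, an inhibitor of the receptor, was lower at 13.3 and 16.3 FPKM in AIR + MPLA and 40.7 and 25.3 in AIR (log2 fold -1.07, limma adjusted p = 0.0229; all 4 fits). The receptor gene Erbb2 was higher at 28.04 and 30.6 FPKM in AIR + MPLA and 15.3 and 15.2 in AIR. In the YAP and TEAD list none of 8 targets was called by limma (none at an unadjusted p under 0.05), nor with median-ratio scaling or GC correction (1 and none at an unadjusted p under 0.05). Of 12 pathway components 3 were higher (25%, against 19.5% of all genes) and 1 lower (8.33%, against 9.9%). The transcription factor Tead2 was among those higher. The list's median was 0.12, or -0.01 with median-ratio scaling.

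The largest fall named by the rule was in purine metabolism. Nt5e, the ecto-5'-nucleotidase CD73 that makes adenosine from AMP (gene ID 23959, chromosome 9, 88327609 to 88372089), had 3.50 and 9.46 FPKM in AIR + MPLA, 100.2 and 32.1 in AIR and 1.97 and 1.97 in Control (log2 fold -3.08, SE 0.56, limma adjusted p = 0.0176; 95% interval -4.40 to -1.76). It passed all 4 fits. The groups did not overlap, and the AIR libraries differed about as much from each other as the AIR + MPLA libraries did. Slc28a2, a concentrative nucleoside transporter, had 9.35 and 18.5 FPKM in AIR + MPLA, 153 and 34.8 in AIR and 7.25 and 19.1 in Control (log2 fold -2.39, SE 0.72, limma adjusted p = 0.046), without a call after GC correction. Of 16 genes of purine breakdown and uptake, these included, 3 were higher and 3 lower (18.8% each, against 19.5% and 9.9% of all genes). Entpd8, an ectonucleotidase, was lower, at 14.9 and 15.2 FPKM in AIR + MPLA and 23.02 and 24.5 in AIR, in all 4 fits. Slc29a1, an equilibrative transporter, was higher, at 16.3 and 16.7 FPKM in AIR + MPLA and 8.86 and 8.19 in AIR. The median of the list was 0.07, or -0.06 with median-ratio scaling.

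Sult1d1, a sulfotransferase, had 76.03 and 73.5 FPKM in AIR + MPLA, 337 and 336 in AIR and 83.7 and 36.6 in Control (log2 fold -2.16, SE 0.35, limma adjusted p = 0.0154). Its transcript is among the poorest in GC (34.7%), and the fold shrank to -0.69 with GC correction, where it was still called (adjusted p = 0.0422). Clec2e, a C-type lectin, had 26.96 and 31.8 FPKM in AIR + MPLA, 159.9 and 119.7 in AIR and 37.2 and 27.6 in Control (log2 fold -2.20, SE 0.22, limma adjusted p = 0.0153). Sepp1, the plasma selenium carrier selenoprotein P, had 77.6 and 92.4 FPKM in AIR + MPLA and 469 and 262 in AIR (log2 fold -2.04, SE 0.29, limma adjusted p = 0.0153). Lysmd3, a LysM domain protein, had 6.44 and 6.30 FPKM in AIR + MPLA and 29.99 and 30.6 in AIR. These 4 passed all 4 fits. Suco and Pof1b completed the falls named by rule, with log2 folds of -2.09 and -2.07, and neither was called with GC correction.

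Among the rises outside the lists, Syna, the retroviral envelope-derived syncytin A, had 5.25 and 6.20 FPKM in AIR + MPLA, 1.11 and 0.991 in AIR and 5.04 and 5.15 in Control (log2 fold 1.71, SE 0.16, limma adjusted p = 0.0153). Reep6, an endoplasmic reticulum-shaping protein, had 88.3 and 106 FPKM in AIR + MPLA, 27.2 and 31.4 in AIR and 60.4 and 71.3 in Control (log2 fold 1.70, SE 0.18, limma adjusted p = 0.0153). Hsd11b2, which inactivates glucocorticoids, had 21.4 and 24.1 FPKM in AIR + MPLA, 6.12 and 8.07 in AIR and 9.01 and 7.06 in Control (log2 fold 1.56, SE 0.19, limma adjusted p = 0.0153). All 3 passed all 4 fits, and Reep6 and Hsd11b2 were higher with MPLA than in any Control library. Ttyh3, of a family of membrane proteins, rose in all 4 fits too, with a log2 fold of 1.63. Aoc1, diamine oxidase, rose (log2 fold 1.55, limma adjusted p = 0.0407) and was called neither with median-ratio scaling nor with GC correction.

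Glutathione transferases, which conjugate reactive compounds, were higher in 11 of 22 (50%, against 19.5% of all genes) and lower in none. Their median was 0.70. With GC correction 8 were higher and none lower, with median-ratio scaling 9 higher and 2 lower, and 4 passed all 4 fits. Gstm2 had 29.1 and 41.3 FPKM in AIR + MPLA, 11.9 and 10.6 in AIR and 30.8 and 29.5 in Control (log2 fold 1.55, SE 0.19, limma adjusted p = 0.0153). Gstm3 had 227 and 399.6 FPKM in AIR + MPLA, 86.7 and 104 in AIR and 238 and 190.4 in Control (log2 fold 1.65, SE 0.29, limma adjusted p = 0.0167). Gstt3, of the theta class, had 48.5 and 53.2 FPKM in AIR + MPLA and 21.02 and 24.1 in AIR (log2 fold 1.14, limma adjusted p = 0.0153). For the mu-class genes Gstm2 and Gstm3, AIR + MPLA replicate 3 was well above replicate 1, and both were above AIR. These paralogs share sequence, so reads can be split among them. Of 33 NRF2 and antioxidant genes 8 were higher (24.2%, against 19.5% of all genes) and none lower. With median-ratio scaling 2 were higher (6.06%, against 10.4%) and with GC correction 3 (9.09%, against 12.2%). Among the genes higher was G6pdx, of the pentose phosphate pathway, at 38.1 and 43.9 FPKM in AIR + MPLA and 23.3 and 17.8 in AIR (log2 fold 0.97, limma adjusted p = 0.0177), in all 4 fits. Pgd, of the same pathway, had 239 and 264 FPKM in AIR + MPLA, 137 and 117 in AIR and 139.7 and 178 in Control (log2 fold 0.98, SE 0.19, limma adjusted p = 0.019).

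Drug metabolism genes leaned the other way, with 8 of 40 lower (20%, against 9.9% of all genes) and 2 higher (5.0%, against 19.5%). Cyp3a25, a cytochrome P450, had 10.6 and 13.3 FPKM in AIR + MPLA, 35.9 and 41.5 in AIR and 41.3 and 31.7 in Control (log2 fold -1.62, SE 0.19, limma adjusted p = 0.0153). Ugt1a7c, a glucuronosyltransferase, had 180.4 and 217 FPKM in AIR + MPLA and 115 and 116 in AIR (log2 fold 0.77, limma adjusted p = 0.0221). Both passed all 4 fits. The list is poor in GC (median 46.3%). With GC correction it had 6 higher (15%, against 12.2% of all genes) and 3 lower (7.5%, against 3.62%). Its median was then 0.29, against -0.11 in the deposited values.

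**Figure D4:**
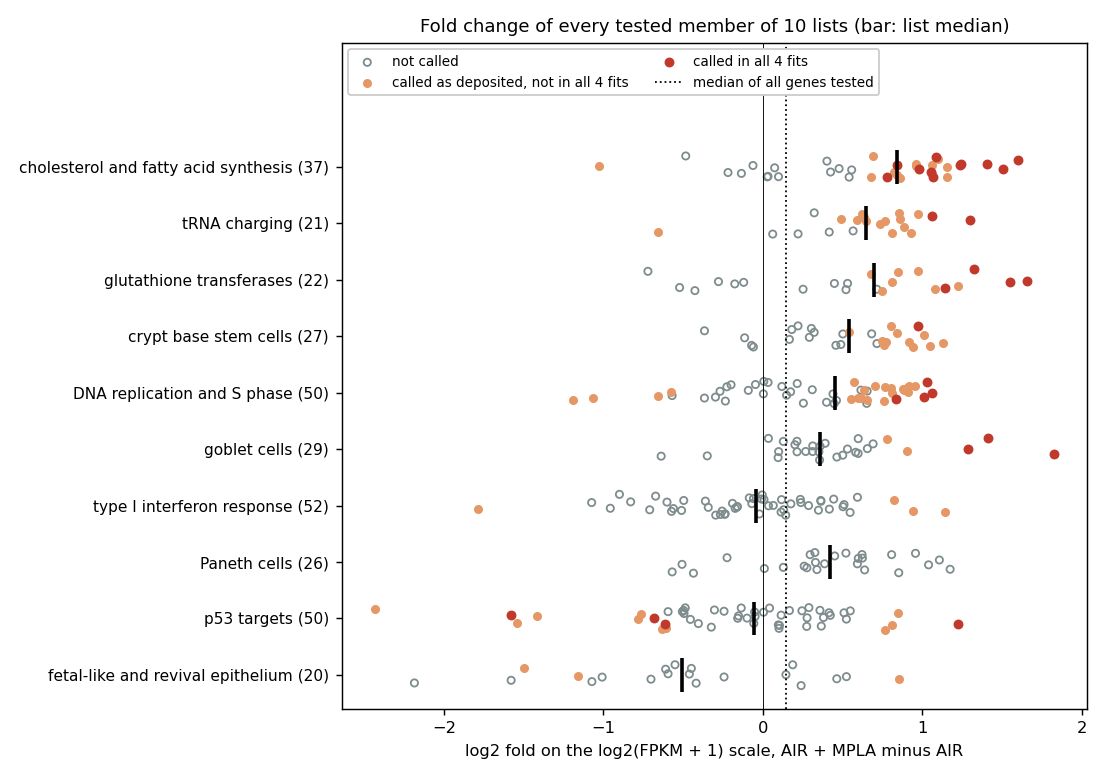
Log2 fold of AIR + MPLA minus AIR on the log2(FPKM + 1) scale for every tested member of 10 lists. Open points were not called, orange points were called in the deposited values and red points in all 4 fits; black bars are list medians and the dotted line is the median of all genes, 0.146. Members of the cholesterol and fatty acid synthesis list lie mostly to the right of it (median 0.84) and those of the fetal-like list mostly to the left (median -0.51).

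The receptor of MPLA was barely detected. Tlr4 had 0.00622 and 0.0147 FPKM in AIR + MPLA, 0.240 and 0.123 in AIR and 0.0169 and 0.0116 in Control, under the limit for testing. Ly96, its coreceptor MD-2, had 3.90 and 3.71 FPKM in AIR + MPLA, 6.65 and 8.18 in AIR and 5.51 and 4.05 in Control (log2 fold -0.80, SE 0.19, limma adjusted p = 0.0251). Of 5 tested receptors and coreceptors it was the only one called, and with GC correction (GC content 41.1%) it was not (adjusted p = 0.999). Of 20 adaptors and kinases 4 were higher (20%, near the 19.5% of all genes) and 1 lower (5%, against 9.9%). With median-ratio scaling 1 was higher (5%, against 10.4%) and 3 were lower (15%, against 14.0%). Ticam1, the adaptor TRIF, had 23.3 and 27.5 FPKM in AIR + MPLA, 12.1 and 12.1 in AIR and 15.2 and 21.1 in Control (log2 fold 1.01, SE 0.19, limma adjusted p = 0.0181). Myd88, the other main adaptor, had 20.1 and 24.01 FPKM in AIR + MPLA and 15.8 and 12.6 in AIR (log2 fold 0.61, SE 0.18, limma adjusted p = 0.0448). Both adaptors were higher than in either AIR library, and Ticam1 but not Myd88 was called with GC correction (adjusted p = 0.023 and 0.167) and with median-ratio scaling. The difference between them was not tested. The median of the TLR4 list was 0.07, or -0.01 with median-ratio scaling.

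NF-kB genes were near the background in the deposited values and under it in the other fits. Of 24 tested 5 were higher (20.8%, against 19.5% of all genes) and 1 lower. After median-ratio scaling 1 was higher (4.17%, against 10.4%) and 3 were lower, and none was called by limma with GC correction (8 at an unadjusted p under 0.05). Nfkb2, the p100 precursor, had 6.50 and 6.98 FPKM in AIR + MPLA and 2.92 and 3.82 in AIR (log2 fold 0.83, SE 0.19, limma adjusted p = 0.0246). Of 40 cytokines and chemokines listed 15 reached the limit, with 1 called higher and 1 lower (6.67% each, against 19.5% and 9.9% of all genes). Cx3cl1, fractalkine, had 26.6 and 26.98 FPKM in AIR + MPLA, 12.9 and 10.8 in AIR and 14.8 and 23.8 in Control (log2 fold 1.12, SE 0.23, limma adjusted p = 0.0199). Il15, which sustains intraepithelial lymphocytes, had 2.06 and 1.88 FPKM in AIR + MPLA, 6.70 and 4.53 in AIR and 2.50 and 2.09 in Control (log2 fold -1.14, SE 0.20, limma adjusted p = 0.0167), and passed all 4 fits. Tnf, tumour necrosis factor, had 0.678 and 1.02 FPKM in AIR + MPLA and 0.632 and 1.21 in AIR, which overlapped (log2 fold -0.05, SE 0.25, limma adjusted p = 0.896).

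Interferon genes were seldom called. Of 52 type I interferon genes 3 were higher (5.77%) and 1 lower (1.92%), both under the shares of all genes, and none passed with GC correction by limma (8 at an unadjusted p under 0.05). Isg15, a ubiquitin-like effector, had 56.5 and 143 FPKM in AIR + MPLA, 174 and 67.2 in AIR and 10.2 and 33.4 in Control (log2 fold -0.27, SE 0.68, limma adjusted p = 0.778). The libraries of both irradiated groups differed among themselves by more than the groups did, and both groups lay above Control. Lgals3bp, a secreted glycoprotein of the list, had 217 and 309.7 FPKM in AIR + MPLA, 153 and 89.4 in AIR and 136 and 138 in Control (log2 fold 1.14, SE 0.29, limma adjusted p = 0.0309). Samd9l, an interferon-induced restriction factor, was lower at 4.75 and 6.72 FPKM in AIR + MPLA and 26.1 and 18.5 in AIR (log2 fold -1.79, limma adjusted p = 0.0181). Of the related interferon gamma GTPases, 2 of 13 were lower (15.4%, against 9.9% of all genes) and none higher. Their median was 0.09, or -0.07 with median-ratio scaling. Of 25 genes of MHC class I and the immunoproteasome 2 were higher (8%, against 19.5%) and 1 lower (4%, against 9.9%). Their median was 0.01, or -0.15 with median-ratio scaling.

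Genes of MHC class II presentation included 2 falls. Of 9 tested 2 were lower (22.2%, against 9.9% of all genes) and 1 higher (11.1%, against 19.5%), with a median of -0.56. With GC correction 5 were lower (55.6%, against 3.62% of all genes) and 1 higher (11.1%, against 12.2%). H2-Ab1, a class II beta chain, had 4.37 and 6.58 FPKM in AIR + MPLA, 18.7 and 11.5 in AIR and 57.3 and 104 in Control (log2 fold -1.30, SE 0.34, limma adjusted p = 0.0331). H2-Aa, an alpha chain, had 2.67 and 2.63 FPKM in AIR + MPLA, 11.4 and 5.69 in AIR and 22.8 and 50.4 in Control (log2 fold -1.32, SE 0.40, limma adjusted p = 0.0485). Both passed all 4 fits, and with MPLA they were farther below Control than in AIR. Ifi30, a lysosomal thiol reductase for antigen processing, was higher, at 168 and 188 FPKM in AIR + MPLA, 71.9 and 75.1 in AIR and 139 and 157 in Control (log2 fold 1.26, SE 0.16, limma adjusted p = 0.0153; all 4 fits). Beside these values, macrophage and dendritic cell markers summed to 6.63 and 4.06 FPKM in AIR + MPLA and 10.6 and 5.78 in AIR, with none of 3 tested called (limma; none at an unadjusted p under 0.05). B and plasma cell markers summed to 1.29 and 1.38 FPKM in AIR + MPLA and 2.85 and 0.683 in AIR, with none of 2 called (limma; none at an unadjusted p under 0.05). The part of these cells in the falls was not tested. H2 genes are paralogs whose reads may be split.

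Mucosal defence genes had 5 of 28 higher (17.9%, near the 19.5% of all genes) and 1 lower (3.57%, against 9.9%). The one lower was S100a8, which was tested only through its AIR libraries. Dmbt1, a secreted scavenger receptor that binds bacteria, had 882 and 746 FPKM in AIR + MPLA, 297 and 305 in AIR and 907 and 536 in Control (log2 fold 1.43, SE 0.27, limma adjusted p = 0.0185). Tgm2, tissue transglutaminase, had 33.4 and 29.6 FPKM in AIR + MPLA, 10.9 and 11.9 in AIR and 45.2 and 50.9 in Control (log2 fold 1.39, SE 0.15, limma adjusted p = 0.0153). Both passed all 4 fits. Lgals9, galectin 9, was higher with 549.9 and 735 FPKM in AIR + MPLA and 331 and 230.4 in AIR (log2 fold 1.20, limma adjusted p = 0.0264).

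Ribosomal genes had shares of calls under the background, and respiratory genes had a share higher that was near it. Of 61 cytosolic ribosomal proteins none was higher and 2 were lower (3.28%), with a median of 0.05 that was -0.12 with median-ratio scaling. Rps27a, one of the 2, had 475 and 414 FPKM in AIR + MPLA and 631 and 889 in AIR, with no call after GC correction. Of 50 nuclear-encoded respiratory chain genes 9 were higher (18.0%, against 19.5% of all genes) and 3 lower (6.0%, against 9.9%). Their median log2 fold was 0.36 against 0.146 over all genes, and 0.195 against 0.009 with median-ratio scaling. With GC correction 3 were higher (6%, against 12.2% of all genes) and 1 lower. Ndufa5, a complex I subunit, was lower in all 4 fits (log2 fold -0.69, limma adjusted p = 0.0335). Iron handling had 4 of 17 higher (23.5%) and 1 lower (5.88%), against 19.5% and 9.9% of all genes. Steap3, an endosomal ferrireductase, had 2.73 and 2.99 FPKM in AIR + MPLA, 0.278 and 0.802 in AIR and 5.84 and 7.12 in Control (log2 fold 1.34, SE 0.21, limma adjusted p = 0.0153). The iron regulatory proteins were called in opposite directions, Aco1 higher at 60.2 and 65.8 FPKM in AIR + MPLA and 31.5 and 35.6 in AIR. Ireb2 was lower at 10.6 and 9.92 FPKM in AIR + MPLA and 27.04 and 21.5 in AIR. With GC correction Aco1 kept its call and Ireb2 (GC content 38.98%) did not (adjusted p = 0.662).

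Set against unirradiated Control, AIR + MPLA had 154 called genes (1.48%), 67 higher (0.643%) and 87 lower (0.835%). AIR set against Control had 2786 (26.7%), 838 higher (8.05%) and 1948 lower (18.7%). Each of these comparisons shares libraries with the one of AIR + MPLA and AIR, so the counts are given side by side only. Both counts are of the deposited values, without GC correction or median-ratio scaling. They use the own values of Control replicate 2, whose FPKM total was 381669, against 503961 in the series table. How far the counts depend on these choices was not tested.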

How the data were processed

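The authors' deposited values are FPKM per gene, although the column headers call them counts. Per the submitters' processing notes, Trimmomatic, HISAT2, Cufflinks and HTSeq were used with GRCm38.p6; no source used here says whether counting used strand, so values of antisense partners and near-identical paralogs are uncertain. The files of each library were used. For Control replicate 2 the series table holds other values than its file, with 4 values above 0 in common, and was tried as an alternative. All 21878 genes were read, symbols turned to dates were restored for 27, and GC content was the median over the GENCODE transcripts of the gene.

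The design allowed for counts, but the values are FPKM, so limma 3.58.1 in R 4.3.3 was fitted to log2(FPKM + 1) with 3 group means over 6 libraries, a mean trend and robust variances, on genes with at least 1 FPKM in 2 libraries, which understates folds of low genes. P-values were adjusted over all 10415 genes by the Benjamini-Hochberg method at 0.05. On simulated data the fit recovered 77% of genes changed by 2-fold and 99% of those changed by 4-fold, with 13 false calls. The simulation had 200 changed genes, independent noise and no trend with GC content. Its rates therefore do not give the error rate in these libraries, where folds went with GC content. GC correction subtracted a lowess curve per library. The members, gene lists and elements were chosen with earlier results of these data known. Genes named are a fixed set of 10 and the 10 largest rises and falls. These were ranked among called genes that do not overlap and average at least 5 FPKM in the higher group. Predicted genes (symbols of Gm and a number, or with Rik or LOC) were left out of the ranking. Per list and role, up to 3 called members each way with the smallest p were added, or, with no call, the 2 most abundant. Some of these are left out. Alternatives were other scalings, filters and pseudocounts, GC and length correction, a replicate block and leaving out each library.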

Additional observations from a re-analysis of the deposited data

How the results depend on the processing

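Against 3060 genes called, with a median log2 fold of 0.146 and 310 calls among listed genes, rescaling to TPM gave 865, 0.041 and 110. No filter gave 1181, 0.000 and 129, GC correction 1652, 0.086 and 186, and GC and length correction 1736, 0.084 and 204. Median-ratio and upper-quartile scaling moved the median to 0.009 and 0.020, and the 5 FPKM filter and a pseudocount of 0.1 to 0.218 and 0.174. Fitting only the 4 irradiated libraries gave 4899 calls, and the series-table values of Control replicate 2 gave 5739 and 539. Leaving out 1 library at a time gave between 0 and 4893 calls, between 0 and 456 among listed genes, and a median between 0.129 and 0.15. The lowest values came without an irradiated library: 0 genes passed (limma), although 3089, 2457, 3665 and 3365 had an unadjusted p under 0.05 without AIR + MPLA replicate 1 or 3 and without AIR replicate 1 or 3. Median-ratio scaling with GC correction, chosen after seeing the data, gave 1329, -0.050 and 139. The cause of these moves was not tested.

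A replicate block gave 3562 calls, 2866 of them shared with the fit without it, and with GC correction 1047, a median of 0.087 and 124 listed calls. The deviations of same-numbered libraries correlated at -0.330 over genes, with 2 pairs. With 2 libraries a group, crossing the numbers only turns the sign of this value. It therefore cannot decide whether the replicate numbers mark a pairing. Crossed numbers, chosen after seeing the data, gave 5722 calls and 595 among listed genes.

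Of 120 named genes called, 114 kept their call with median-ratio scaling and 78 with GC correction. The call was kept by 72 with rescaling to TPM, 72 with no filter and 73 with median-ratio scaling and GC correction. With the replicate block and GC correction 53 kept the call. Each of the 120 lost it without any 1 irradiated library, with no change of sign. Signs turned for these genes. Clu, at 0.14, was -0.174 with GC correction, -0.163 with GC and length, -0.169 with the replicate block and GC correction, -0.304 with median-ratio scaling and GC correction, and -0.069 and -0.691 without AIR + MPLA or AIR replicate 3 (range -0.691 to 0.98). Isg15 was 0.395 and 0.414 without AIR + MPLA or AIR replicate 1, the range being -0.948 to 0.414. Tnf was 0.087 and 0.173 without AIR + MPLA replicate 1 or AIR replicate 3. With 1 library left out at a time its range was -0.264 (without AIR replicate 1) to 0.173. Over all settings its range was -0.355 (median-ratio scaling with GC correction) to 0.173. Ly96 was 0.032 with GC and length correction. Dars was 0.135 with GC correction, 0.110 with GC and length, and 0.133 with the replicate block and GC correction. With 2 libraries a group and no read totals, the spread of each group and the precision of low values are poorly known.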
